A study of Mus musculus with 4 samples.

Results

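At E16.5, basal cells of the mouse epidermis were profiled on 2 expression arrays labelled het_1210 and het_1261, out of 4 arrays in the series. The samples were taken by their titles, and the other 2 arrays, labelled cKO, were not used. Embryos of the het group carried 1 floxed and 1 intact Srf allele (SRF fl/+), a YFP reporter in the ROSA26 locus on both chromosomes (ROSA26 YFP fl/fl) and the K14-Cre transgene; the strain label of both samples gives only Rosa26. K14-Cre acts in keratinocytes that use the Krt14 promoter, so the group has Cre activity and a recombined reporter, and the submitters call it WT. Live single cells were sorted on α6 integrin and YFP. No label says whether a sample came from 1 embryo or from several, so the spread between the 2 arrays may be in part technical, and no p-value was computed from it.

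The basal layer is the proliferating, innermost layer of the epidermis. Its cells build a cytoskeleton of the keratins K5 and K14, hold to the basement membrane through hemidesmosomes and integrins, and depend on the transcription factor p63. Cells that leave the layer switch to the spinous keratins K1 and K10, and later to the precursors of the cornified envelope. Around E16.5 the mouse epidermis is stratifying, and hair follicle placodes and buds are forming in it.

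Each of 18193 genes was represented by its brightest probe set and ranked by the mean of log2(signal + 1), where signal is the deposited MAS5 intensity on a linear scale. Signals are given as a pair, het_1210 first, and a difference is het_1261 minus het_1210 on the log2 scale. To mark where signal is no longer told from background, 126 genes known for other organs or for smell and taste were used as a reference: 95% of them had a mean at or below a signal of 61.3, called the ceiling here. The ceiling was 71.6 on het_1210 and 60.1 on het_1261. Genes at or below it are called near background (6609 genes), those up to 4-fold above it weak (3130, up to a signal of 248), the top 10% abundant (1820, from a signal of 2551) and those in between intermediate (6634). On both arrays 10847 genes, 59.6%, lay above the ceiling. Probe sets differ in how well they bind, so a rank orders probe sets and not the amounts of transcripts.

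The arrays differed in their controls and in Xist. Poly-A spike-in controls, added before labelling, were 2.45-fold brighter on het_1210 at the median, at 24 of 24 probe sets, and hybridization controls 1.89-fold, at 18 of 18. The 3' to 5' ratio of the Gapdh control was 0.871 on het_1210 and 0.782 on het_1261, and that of the Actb control 2.75 and 2.002. Xist, which is made from an inactive X chromosome, read 62.6 and 14338, and the Y-linked genes Eif2s3y at 1485 and 834, Kdm5d at 762 and 514 and Uty at 324 and 265 were above the ceiling on both arrays. The sample het_1261 thus held Xist and Y-linked transcripts together. The part of any of these in the differences between the arrays given below was not tested.

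All 6 markers of basal keratinocytes named for these cells were abundant. Keratin 5 (Krt5) read 57958 and 36834, rank 22, and its partner keratin 14 (Krt14) read 59598 and 35520.1, rank 23. Collagen XVII (Col17a1), a transmembrane collagen of the hemidesmosome, read 14687 and 13871, rank 231. These 3 markers stood far above the ceiling on both arrays. The gene of p63 (Trp63) read 8893 and 11309.6, rank 382. Integrin α6 (Itga6), the protein used for the sort, read 6609.7 and 12525, rank 430, and its partner integrin β4 (Itgb4) read 2792 and 2348, rank 1812. Itgb4 lay at the lower edge of the top 10%, and it ranked 1820 under quantile scaling and 1998, outside the top 10%, on het_1261 alone. Trp63 had 4 probe sets, of which 3 were far dimmer, so its median probe set ranked 4336. The sort used α6 integrin and a reporter recombined by K14-Cre, so Itga6, its partner Itgb4 and Krt14 give no separate support for the label. Krt5, Col17a1 and Trp63 fit the label of basal keratinocytes, although the spinous keratin Krt10, described below, ranked above Col17a1 and Trp63. All 6 markers differed by less than 2-fold between the arrays.

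**Figure D1:**
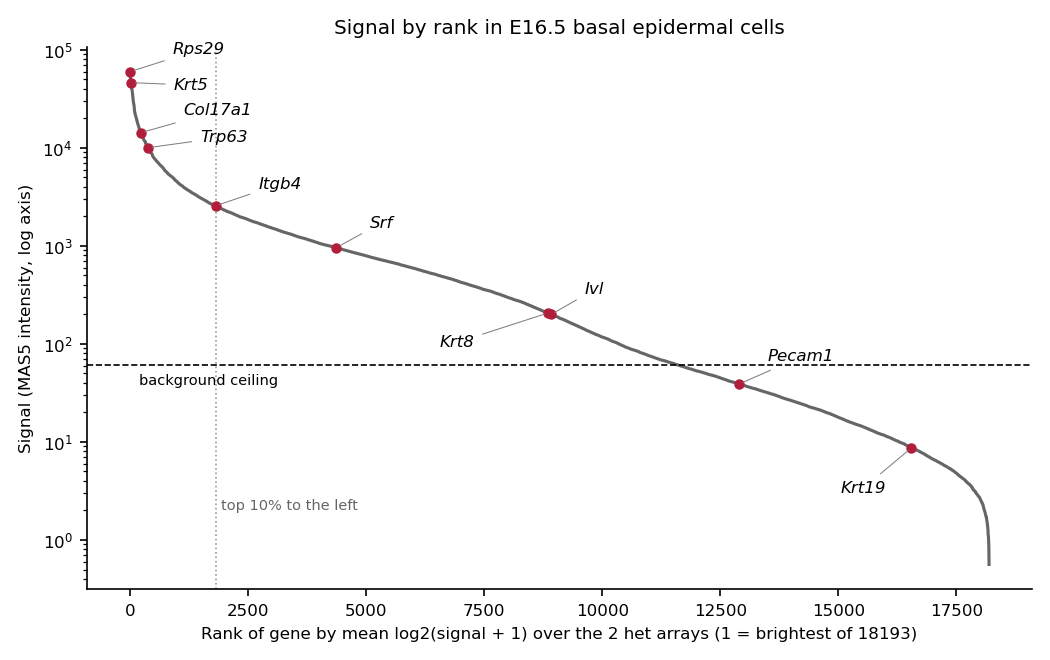
Signal of each gene (MAS5 intensity, log axis) against its rank by mean log2(signal + 1) over the 2 het arrays, with 10 genes labelled. Krt5, Col17a1 and Trp63 lie in the top 10% to the left of the dotted line and Itgb4 on it, while Pecam1 and Krt19 lie below the dashed background ceiling of 61.3.

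The machinery of translation filled the top of the ranking. Of the 25 brightest genes, 19 encoded ribosomal proteins, led by Rps29 at 75317 and 47549 and Rps20 at 69892 and 45887. The others were the elongation factor Eef1a1 at 65293 and 39699.7, Tpt1 at 61502 and 37672, the nucleosome-binding protein Hmgn1 at 57526 and 37941, galectin 7 (Lgals7), a lectin of stratified epithelia, at 59669 and 37976, and the keratins Krt5 and Krt14. Each of these was brighter on het_1210. The offset was shared by bright probe sets: over the 100 brightest genes the difference ran from -0.92 to -0.06, with a median of -0.65, while over all genes the median was -0.15. Of 49 ribosomal protein genes with a probe set of their own, 41 were abundant, against 10% of all genes, and their median difference was -0.68, which became -0.02 under quantile scaling. This list was taken by gene symbol after the values had been seen, so its shares here and below are no independent contrast. Over all 1820 abundant genes the median difference was -0.29, with 10th and 90th percentiles of -0.76 and 0.57, so the larger offset belonged to the very brightest.

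The keratin family split into 6 genes in the top 10% and a large dim remainder. Beside Krt5 and Krt14 these were Krt15, a keratin of basal cells, at 47674 and 32809.8, the spinous keratins Krt10 at 58187 and 33198 and Krt1 at 32609.6 and 17235, and Krt17, a keratin of placodes and periderm, at 22346 and 8581. Krt10 ranked 29 and thus beside the basal pair, in cells sorted for a basal integrin. Krt17 was 2.60-fold brighter on het_1210, more than the offset of bright genes; of the 6 it alone passed 2-fold. Its difference was -1.38, and -1.06 under quantile scaling.

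Of 48 keratin genes measured, 7 more were intermediate, 9 weak and 26 near background. Krt16, which rises in wounds, read 2036 and 2172, and the other wound keratins Krt6a at 193 and 142 and Krt6b at 48.2 and 21.3 were weak and near background; probe sets of these paralogs may read each other's transcripts. The simple epithelial keratins were dim: Krt18 read 180.4 and 413, Krt7 343 and 170.1 and Krt8 229 and 187, while Krt19 at 11.7 and 6.41 and Krt20 at 4.81 and 13.4 lay near background on both arrays. Krt77, a keratin of suprabasal cells, differed most among the keratins above the ceiling on both arrays, at 193 and 1742. Krt4 read 92.2 and 61.7 and Krt13 21.5 and 60.6, while Krt2, a keratin of the upper spinous layer, read 5.68 and 3.64 and was near background. Among 20 keratins of hair and follicle, 15 were near background and 5 were above the ceiling on both arrays, led by Krt79 at 661 and 204, Krt32 at 322 and 240.0 and Krt81 at 169.8 and 196.

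**Figure D2:**
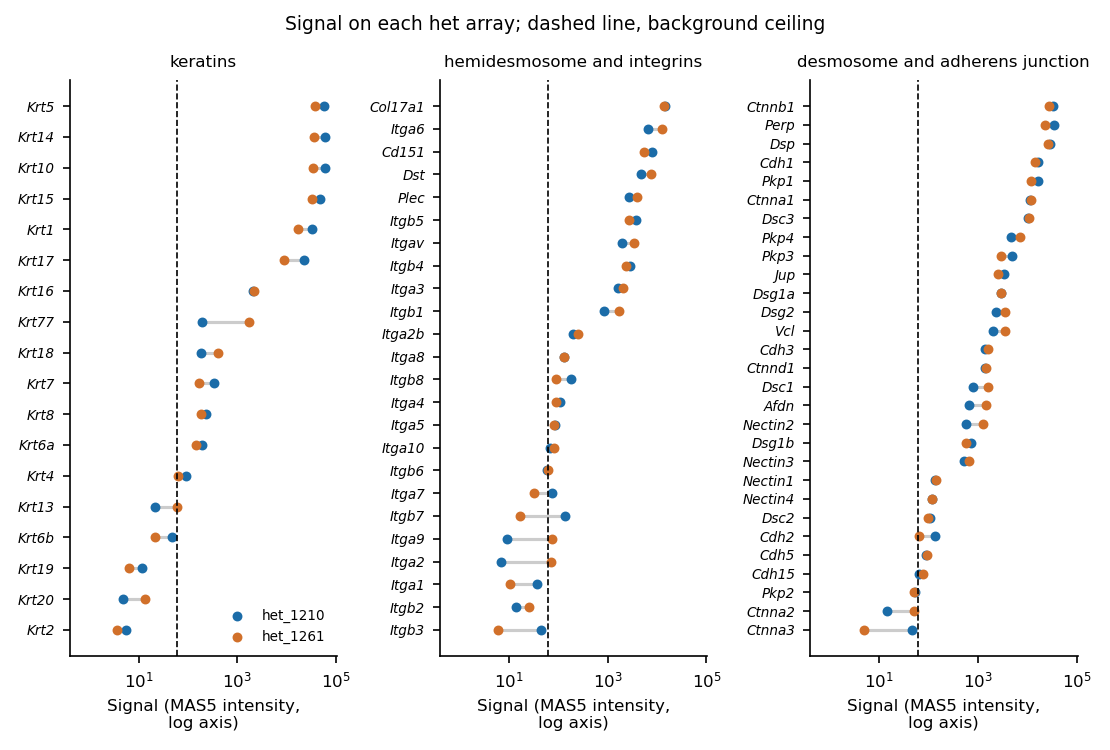
Signal (MAS5 intensity, log axis) of keratins, hemidesmosome genes and integrins, and desmosome and adherens junction genes, with 1 point for each het array. The 6 keratins from Krt5 to Krt17 stand to the right of the other keratins, and most genes right of the dashed ceiling have points that lie close together.

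The promoters of keratins and of ribosomal protein genes differed in sequence. The letters ATAAA, the core of a TATA box, were searched on both strands between 40 and 20 bases before the start sites in the RefSeq promoter table (GRCm38.p6), which held 32 of the 48 keratins, with 33 start sites. On the gene's own strand they stood in 19 of these 33 (57.6%), against 3.89% of all 32851 promoters of the table. Of the 6 abundant keratins 3 were matched, and 2 of their 3 promoters held the letters. The share was also high in genes of the spinous, granular and cornified layers, at 13 of 31 promoters (41.9%). The letters stood in 1 of 51 promoters of ribosomal protein genes (1.96%) and in 0 of 30 promoters of oxidative phosphorylation genes. On either strand the shares were 57.6% for keratins and 5.65% for all promoters. The median number of CG pairs in the 250 bases before the start was 4 for keratins and 18 for ribosomal protein genes. The 60 bases before the start are shown for 2 keratin genes and 2 differentiation genes described below, beside a ribosomal and a cytochrome oxidase gene. ATAAA is in capitals where it was found. The keratin and differentiation starts shown are examples that hold the letters, and others do not.
Krt5 (chr15:101712906-101712965, minus strand): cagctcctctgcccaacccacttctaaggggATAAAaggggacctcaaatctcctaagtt
Krt10 (chr11:99389365-99389424, minus strand): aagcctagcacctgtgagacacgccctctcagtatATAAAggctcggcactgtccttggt
Krtdap (chr7:30787845-30787904, plus strand): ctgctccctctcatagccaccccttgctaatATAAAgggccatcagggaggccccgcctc
Lor (chr3:92083143-92083202, minus strand): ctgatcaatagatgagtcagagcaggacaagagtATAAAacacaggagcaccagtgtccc
Rpl13a (chr7:45128746-45128805, minus strand): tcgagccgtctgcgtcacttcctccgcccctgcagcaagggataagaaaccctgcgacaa
Cox5a (chr9:57521172-57521231, plus strand): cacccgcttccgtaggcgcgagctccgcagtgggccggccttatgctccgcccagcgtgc
The motif began 29 bases before the start in Krt5, 25 in Krt10, 29 in Krtdap and 26 in Lor. It was not in this window of Rpl13a or Cox5a, nor at the listed starts of Krt14 and Krt77. Dmkn had listed starts with and without it. Among all genes on the array the share with the letters on their own strand was 2.56% for the abundant, 1.63% for the intermediate, 3.06% for the weak and 6.78% for those near background. A match of letters is not a measured site.

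Genes of the hemidesmosome, which anchors keratin filaments to the basement membrane, were all abundant: the 6 measured were in the top 10%, and all 6 differed by less than 2-fold. Behind Col17a1 and Itga6 came the tetraspanin Cd151 at 7808 and 5489, the plakin Dst (BPAG1) at 4664 and 7614 and plectin (Plec) at 2722 and 4011. Of 17 basement membrane genes, 6 were abundant and 8 intermediate, and all 17 were within 2-fold. The brightest were Col4a5, a chain of collagen IV, at 7362 and 6614, the laminin-332 chain Lamb3 at 7202 and 5491 and Col7a1, the anchoring fibril collagen, at 4904 and 4630.3. The laminin-332 chain Lama3 read 4138 and 5116. Frem1 at 54.1 and 84.0 and Lama1 at 36.1 and 68.1 passed their array's ceiling on het_1261 alone.

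Integrins were more uneven. Of 20 measured, 4 were abundant, 2 intermediate, 6 weak and 8 near background. Beside the α6β4 pair the abundant chains were Itgb5 at 3702 and 2766 and Itgav at 1956 and 3468, and the intermediate ones were Itga3, the α chain of the laminin receptor α3β1, at 1639 and 2037, and its partner Itgb1 at 851 and 1731, with a difference of 1.02. These 6 stood apart from the rest, of which the brightest, the platelet chain Itga2b, read 195 and 258. The collagen receptor chain Itga2 read 6.84 and 71.0 and the tenascin receptor chain Itga9 read 9.06 and 74.6, each above its array's ceiling on het_1261 alone. Of the 20 integrins 13 were within 2-fold. On het_1261 3 were over 2-fold higher, against 11.4% of all genes, and on het_1210 4 were, against 13.1%. The leukocyte chain Itgb2 was near background at 13.9 and 25.7.

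Desmosomes join keratinocytes to each other, and 9 of 13 of their genes were abundant. Perp, a membrane protein needed for desmosomes in stratified epithelia, read 34272 and 23206, desmoplakin (Dsp) 28653 and 26179 and plakophilin 1 (Pkp1) 16615 and 11812. The cadherin Dsc3, of the basal layers, was abundant at 10244 and 10808, Dsc1, of the upper layers, intermediate at 788 and 1591, and Dsc2 weak at 109 and 100.4. In this list 12 of 13 genes were within 2-fold, and Dsc1, with a difference of 1.01, was the exception.

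Of 16 adherens junction genes 4 were abundant: β-catenin (Ctnnb1) at 32996 and 27749, E-cadherin (Cdh1) at 16526 and 14565, α-catenin (Ctnna1) at 11564 and 11725 and vinculin (Vcl) at 2076 and 3558. P-cadherin (Cdh3), a cadherin of basal and placode cells, was intermediate at 1414 and 1634. The cadherins of other tissues were weak, with N-cadherin (Cdh2) at 137 and 65.4 and VE-cadherin (Cdh5) at 89.2 and 91.8, while the neural catenin Ctnna2 at 14.7 and 50.5 was near background. Of 18 tight and gap junction genes only connexin 43 (Gja1), at 31162 and 25384, was abundant. Claudin 1 (Cldn1), the main claudin of the epidermal barrier, read 2029.7 and 2396 and F11r 1986 and 2136. Cldn4 read 598 and 1712, a difference of 1.52, while Cldn6 was near background at 39.3 and 24.9.

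Genes of differentiation beyond the basal layer were split between very bright and dim. Of 29 measured genes of the spinous, granular and cornified layers 7 were abundant, 8 intermediate, 10 weak and 4 near background. Dermokine (Dmkn) read 39946 and 28575 and ranked 57, and keratinocyte differentiation associated protein (Krtdap) read 42979.8 and 24836 and ranked 60, both within 2-fold between the arrays. The epidermal calmodulin Calm4 read 11365 and 10109 and suprabasin (Sbsn) read 7957 and 5175. These 4 genes were bright on both arrays, as Krt1 and Krt10 were.

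Many genes of the last steps of differentiation read higher on het_1261. Loricrin (Lor), the main protein of the cornified envelope, read 1063 and 9592, hornerin (Hrnr) read 104 and 2342, and involucrin (Ivl) read 97.5 and 409. The small proline-rich proteins Sprr1a at 154 and 1259 and Sprr1b at 94.95 and 1265 showed the same order. Of the 29 genes, 13 were over 2-fold higher on het_1261, against 11.4% of all genes and 5.67% of genes above the ceiling on both arrays, and 5 were over 2-fold higher on het_1210, against 13.1% and 3.98%. The 5 were Ly6d at 14316 and 5419, Tgm5 at 511 and 244, and Lce3a, Sprr2d and Sprr3, which lay near background. The median difference of the list was 0.63, and 0.33 under quantile scaling, beside -0.15 for all genes.

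Transcription factors known from the epidermis were mostly intermediate or abundant. Of 38 measured, 9 were abundant, 22 intermediate, 5 weak and 2 near background, and 36 were above the ceiling on both arrays, against 59.6% of all genes. The brightest were Klf4, a factor of the differentiating layers and the barrier, at 8767 and 11493, Trp63, and Klf5 at 8347 and 7205. Bcl11b (CTIP2) at 4201 and 7890.1, Nfib at 3692 and 7945, the chromatin organizer Satb1 at 4076 and 7082, Cebpb at 4704 and 4254, Klf3 at 2762 and 7167 and Tfap2a (AP-2α) at 2748 and 3625 completed the abundant group. AP-2γ (Tfap2c) read 1862 and 2367, the grainyhead factor Grhl2 1918 and 2837 and Gata3 2482 and 1803, all of them intermediate.

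A minority of these factors differed by over 2-fold: 6 of the 38 were higher on het_1261, against 11.4% of all genes and 5.67% of those above the ceiling on both arrays, and 3 on het_1210, against 13.1% and 3.98%. Ovol1, a repressor that acts as cells leave the basal layer, read 695 and 2637, Klf3 differed by 1.38, and Myc, at 1089 and 2756, by 1.34. In the other direction Dlx3, a homeobox factor of the suprabasal layers, read 504 and 152, a difference of -1.72, and Runx1 read 236 and 87.0. The ETS factors Ehf at 48.2 and 50.9 and Elf5 at 5.08 and 39.6 were near background. Srf itself, intact on 1 allele here, was intermediate at 834 and 1108, rank 4373.

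Factors of placode and follicle were measurable in the sorted population. Sox4 had the highest rank of the transcription factors in these lists, at 27998 and 26902, although its 8 probe sets spanned 13.52 on the log2 scale and its median probe set ranked 2868. Lef1, a partner of β-catenin in placodes, read 3594 and 4921, and Gli2, a transcription factor of the Hedgehog pathway, read 2494 and 3632. Sox9 at 441 and 672 and Lhx2 at 807 and 310.3, both of follicle progenitors, were intermediate, and Lhx2 differed by -1.38. Of 26 factors that direct other lineages, none was abundant and 16 were near background; 1, Twist2 of the dermis, was intermediate at 369 and 265. Myod1 at 43.4 and 62.0, Sox10 at 37.6 and 45.9, Gata1 at 41.8 and 40.3 and Pou5f1 at 9.05 and 4.96, of muscle, neural crest, blood and pluripotent cells, were all near background.

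**Figure D3:**
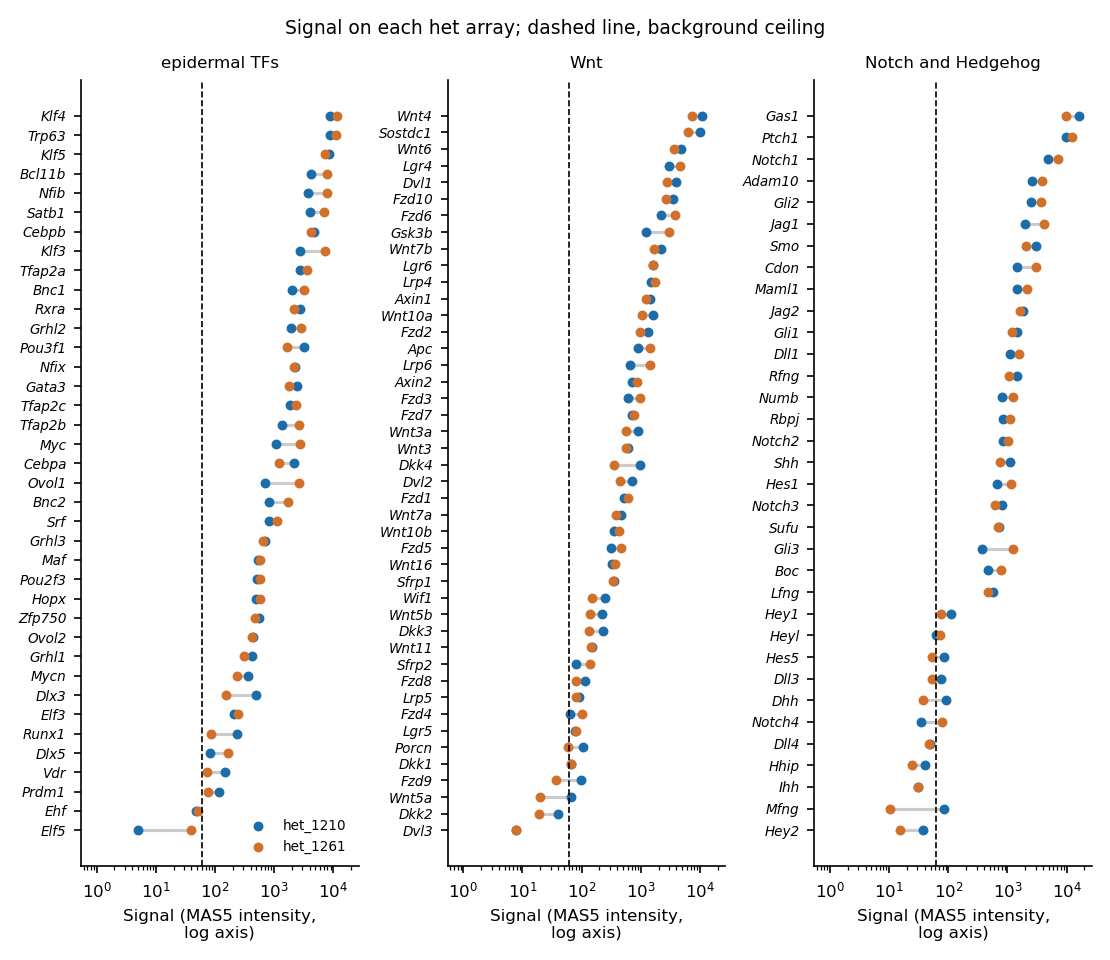
Signal (MAS5 intensity, log axis) of epidermal transcription factors (TFs), Wnt genes, and Notch and Hedgehog genes, with 1 point for each het array and the dashed background ceiling. Klf4 and Trp63 lead the factors, Wnt4 the Wnt genes, and Gas1 and Ptch1 the third panel, in which genes from Hey1 down lie at or near the ceiling.

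In the Notch pathway, which promotes the spinous switch, several receptors and ligands were abundant or intermediate. The target Hes1 was intermediate, and the Hey targets were weak or near background. Of 21 genes 3 were abundant: the receptor Notch1 at 4821 and 7034, the protease Adam10, which cleaves Notch, at 2625 and 3769, and the ligand Jag1 at 2000.5 and 4189, with a difference of 1.07. The ligands Jag2 at 1866 and 1599.7 and Dll1 at 1124 and 1579 and the receptors Notch2 at 835 and 1017 and Notch3 at 804 and 623 were intermediate. The target Hes1 read 666 and 1147, while Hey1 read 113 and 73.8, Heyl 60.8 and 72.7, Hes5 83.3 and 52.7 and Hey2 37.3 and 15.1. The endothelial ligand Dll4, at 49.6 and 46.6, was near background.

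Wnt ligands, receptors and inhibitors were present together: of 44 genes 7 were abundant, 22 intermediate, 11 weak and 4 near background, and 38 were within 2-fold. The ligands Wnt4 at 10834 and 7331 and Wnt6 at 4832 and 3669.9 were abundant, and Wnt7b at 2202 and 1696 and Wnt10a at 1608 and 1038 intermediate. The secreted BMP and Wnt inhibitor Sostdc1 read 9926 and 6313. Among receptors Lgr4 read 3003 and 4546, Fzd10 3534 and 2643 and Fzd6 2237 and 3765. The placode ligand Wnt10b read 347 and 434, and the inhibitor Dkk4, a placode gene, read 966 and 348, a difference of -1.47. Wnt5a, a ligand of the dermis, was near background at 65.6 and 19.7, and the stem cell receptor Lgr5 was weak at 78.2 and 81.7 while its relative Lgr6 was intermediate at 1613 and 1616.

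Of 35 genes of BMP and TGF-β signalling 9 were abundant and 19 intermediate. Follistatin (Fst), an activin and BMP antagonist, led at 8906 and 9913, followed by Smad4, the shared effector, at 5262 and 6677 and the BMP target Id3 at 4411 and 5299. The antagonists Nog at 5.44 and 20.5 and Grem1 at 58.1 and 1.09 were near background. Here 8 genes were over 2-fold higher on het_1261, among them the receptors Bmpr2 at 1958 and 4576 and Tgfbr1 at 1447 and 3427 and the ligand Bmp2 at 1918 and 4184, and 4 on het_1210. Of all genes 11.4% and 13.1% were so, and of genes above the ceiling on both arrays 5.67% and 3.98%. Hedgehog genes included 3 abundant members of 13. These were the co-receptor Gas1 at 16444 and 9777, the receptor and target Ptch1 at 9785 and 12294, and Gli2. The ligand Shh read 1102 and 759.9 and the target Gli1 1470.4 and 1216, both intermediate, while Ihh at 30.6 and 31.2 and Dhh at 90.4 and 37.4 were near background.

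In EGF and FGF receptor signalling 7 of 32 genes were abundant. They were the phosphatase Dusp6, a target of MAP kinase signalling, at 3159 and 8439.9, the FGF receptors Fgfr2 at 2777 and 6859 and Fgfr3 at 2764 and 2884, the feedback genes Lrig1 at 4009.8 and 4481, Spred2 at 3349 and 5223 and Errfi1 at 1726 and 4028, and Erbb3 at 2664 and 3551. Egfr was intermediate at 1567 and 2512. On het_1261, 11 of 32 were over 2-fold higher, against 11.4% of all genes and 5.67% of those above the ceiling on both arrays. On het_1210 0 were, against 13.1% and 3.98%. The median difference of the list was 0.69, beside -0.15 for all genes. The EGF receptor ligands Hbegf at 251 and 1581, Ereg at 20.9 and 179.9 and Epgn at 712 and 1905 were among the 11. The ligands Fgf7 at 38.9 and 58.8 and Fgf10 at 28.3 and 23.6, made by dermal cells, were near background. Other dermal genes were bright: 6 of 15 markers of dermal fibroblasts, described below, were abundant. In the ectodysplasin and NF-κB list the inhibitor Nfkbia read 11156 and 27474, the adaptor Edaradd 2773 and 2500.2, and the subunit Rela 2154 and 3199; the receptor Edar was intermediate at 467 and 409.

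Genes of oxidative phosphorylation had a median rank of 277, those of the citric acid cycle 1095.5, of glycolysis 1928.5 and of fatty acid oxidation 3356, beside 34 for ribosomal protein genes. Of 39 nuclear-encoded genes of oxidative phosphorylation, 34 were abundant, led by Uqcrb of complex III at 48440.1 and 28231, Cox6a1 at 38980.5 and 24244 and Cox7a2 at 35906 and 22516 of complex IV. Isoforms of muscle and lung were the dim ones: Cox6a2 read 144 and 83.0, Cox7a1 58.2 and 115, Cox4i2 72.4 and 63.6 and Cox8b 15.6 and 43.3. Of the 39, 38 were within 2-fold, and 36 were brighter on het_1210, with a median difference of -0.59 as for other very bright genes, and -0.22 under quantile scaling. All 20 genes of the citric acid cycle and its entry were abundant (17) or intermediate (3) and within 2-fold, led by Mdh1 at 22579 and 19899.7, Mdh2 at 22082 and 14828 and Cs at 11678 and 9489.

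In glycolysis 9 of 18 genes were abundant, and isoforms separated. The glucose transporter Slc2a1 (GLUT1) read 22197 and 16758, Tpi1 18068 and 10786 and Ldha 16347 and 11513. The neuronal enolase Eno2 at 37.8 and 42.3 and the lactate exporter Slc16a3 at 63.7 and 38.8 were near background, while the related transporter Slc16a1 read 7621 and 7998. Of 17 genes of fatty acid oxidation 6 were abundant and 10 intermediate, led by Hadh at 15548 and 8666, Hadhb at 8939 and 6825 and Acaa2 at 5858 and 4354, and all 17 were within 2-fold. None of these lists held a member over 2-fold higher on het_1261 apart from Cox8b, which was near background.

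Sterol and lipid synthesis was mostly intermediate. Of 17 genes of cholesterol synthesis 3 were abundant and 13 intermediate, led by Hmgcs1 at 7274 and 15452, Fdft1 at 2646 and 3324 and Idi1 at 1838 and 3596. Of 27 barrier lipid genes 3 were abundant, namely the desaturase Scd2 at 9813 and 10689, the ceramide desaturase Degs1 at 4504 and 4647 and the elongase Elovl1 at 2861 and 2661. The ceramide synthase Cers3 read 1666 and 2313 and the elongase Elovl4 658 and 757, both needed for the ceramides of the barrier. The lipid transporter Abca12 was near background at 35.5 and 48.2, and the lipoxygenase Alox12b, at 39.1 and 110.2, passed the ceiling on 1 array. Among 23 redox genes 7 were abundant, led by Txn1 at 23259 and 17301, Prdx2 at 24796 and 15996 and Gpx1 at 25286 and 14990.1. Genes of liver and kidney metabolism were dim: 0 of 17 were abundant or intermediate and 14 were near background. The ceiling was itself set in part from genes of other organs, so this list is no independent contrast. The 3 weak ones were Ass1 at 129.6 and 97.0, Pklr at 100.3 and 61.9 and Apoa1 at 132 and 34.7.

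**Figure D4:**
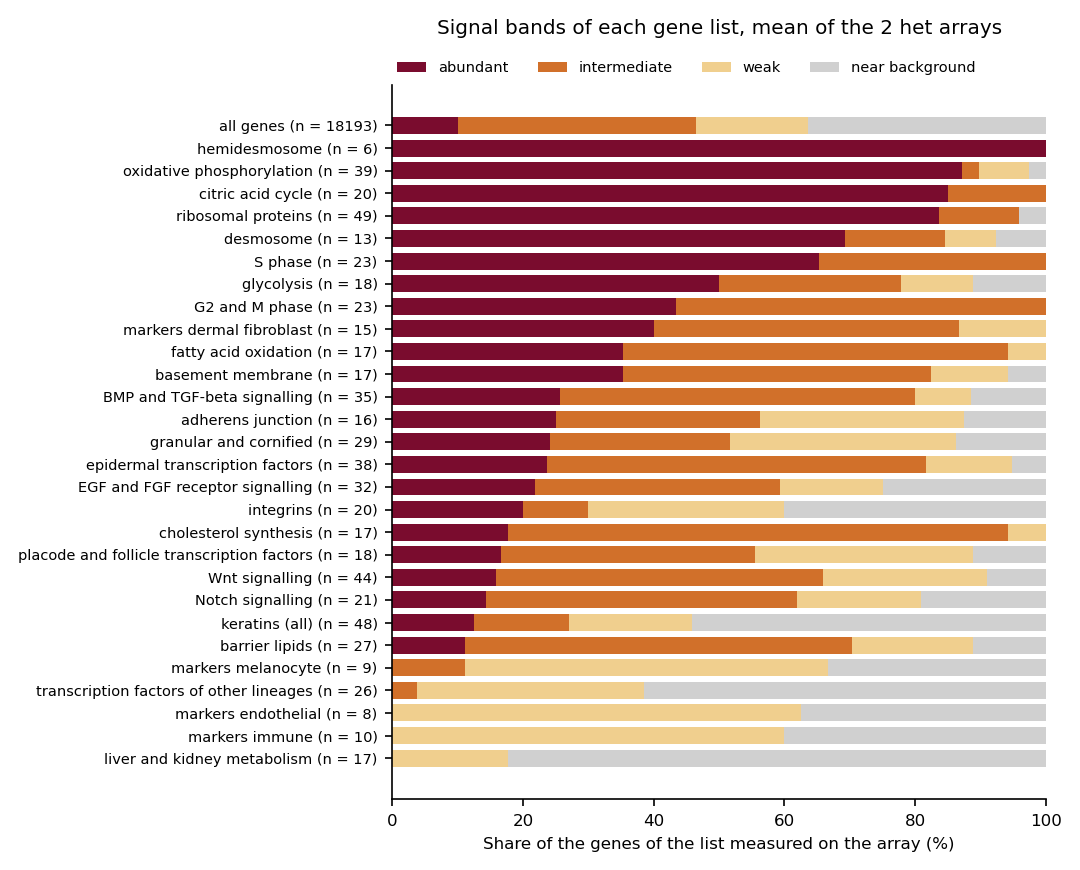
Share of the measured genes of each list (%) in the abundant, intermediate, weak and near background bands, by the mean of the 2 het arrays, with all 18193 genes at the top. Hemidesmosome, oxidative phosphorylation, citric acid cycle and ribosomal protein genes are mostly abundant, and liver and kidney metabolism mostly near background.

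Proliferation genes were bright on both arrays. All 23 S phase genes were abundant (15) or intermediate (8), led by Pcna at 26619.5 and 19822 and the helicase subunits Mcm5 at 14465 and 8798 and Mcm7 at 13767 and 8405. All 23 genes of G2 and M were abundant (10) or intermediate (13), led by Cdc20 at 14946 and 10312, Ube2c at 12209 and 10585 and Top2a at 6112 and 9399. Within 2-fold between the arrays were 21 of the 23 S phase genes and 22 of the 23 G2 and M genes. Cell cycle brakes were bright as well: Btg1 read 16349 and 19206, stratifin (Sfn, 14-3-3σ) 6427 and 8520.1 and Cdkn1a (p21) 2221 and 3895, while Cdkn2a was near background at 12.2 and 22.1. Cycling genes and early differentiation genes were thus both among the abundant.

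Markers of other cell types were mostly weak or near background, except those of dermal fibroblasts and of periderm. Of 15 fibroblast markers 6 were abundant, 7 intermediate and 2 weak, with 14 above the ceiling on both arrays. Periostin (Postn), a secreted matrix protein, read 20659.9 and 20294, decorin (Dcn) 19907 and 19073 and Sparc 14207 and 11165, and Col3a1 read 10543 and 7811. The 2 weak markers were the membrane receptors Pdgfrb at 192 and 110.3 and Pdgfra at 58.3 and 84.4. All 15 were within 2-fold, and their summed signal was 86821 on het_1210 and 75282 on het_1261. Whether these signals came from sorted keratinocytes or from other cells was not tested, and fewer cells of a type cannot be told from less RNA per cell.

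Of 9 melanocyte markers 0 were abundant and 3 near background, led by Dct at 532 and 275, Pmel at 395 and 115 and Mitf at 157 and 121; the defining factor Sox10 was near background, and Pmel differed by -1.77. None of 8 endothelial markers was above weak, with Esam at 147 and 126, Kdr at 155 and 96.4 and Cdh5 at 89.2 and 91.8 the brightest, and Pecam1 near background at 44.0 and 34.6. Of 10 immune markers none was above weak, led by Laptm5 at 267 and 195, Cd74 at 168 and 281 and Csf1r at 118 and 110.5, with Ptprc (CD45) at 26.8 and 43.6 and the Langerhans cell marker Cd207 at 7.54 and 5.87 near background. Of 7 Merkel cell markers 5 were near background, including Atoh1 at 52.8 and 28.9, Krt20 and Sox2. Of 8 skeletal muscle markers none was above weak, led by Acta1 at 90.5 and 198, Des at 112 and 54.9 and Myh3 at 64.1 and 83.3. Of 6 nerve and Schwann cell markers 4 were near background, and the bright ones, Erbb3 and Mbp at 580.0 and 741, are also used outside nerve. The values of Mbp are from the brightest of its 8 probe sets. Most of the others were lower on het_1261, and its median probe set ranked 8295. Of the 3 erythroid markers with a probe set of their own, Alas2 read 69.9 and 72.5, Slc4a1 71.9 and 48.6 and Hba-a1 7.12 and 5.59. Of 9 markers of periderm, the transient outermost layer of the embryonic epidermis, 2 were abundant, 3 intermediate, 3 weak and 1 near background, and 8 were above the ceiling on both arrays. Krt17, Sfn and Ppl at 1511 and 2235, the brightest, are also expressed by other keratinocytes. The dimmest were Krt4, which was weak, and Cldn6, near background. The part of periderm cells in these values was not tested.

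The share of genes within 2-fold was highest where signal was high. That share was 94.7% of abundant, 89.5% of intermediate, 83.5% of weak and 52.5% of near background genes. By the median size of the difference the intermediate genes were closest, at 0.43, followed by the abundant at 0.46, the weak at 0.47 and those near background at 0.92. Of the genes above the ceiling on both arrays, 90.3% were within 2-fold, 615 (5.67%) were over 2-fold higher on het_1261 and 432 (3.98%) on het_1210. The median size of the difference in the second lowest 10% of genes was 1.54, and it was between 0.42 and 0.47 in each 10% from the fifth upward. Across genes, which are not independent replicates, Pearson's r was 0.94 and Spearman's rho 0.95 for all genes. A difference of 2-fold in a gene near background was common on these arrays.

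The largest differences lay on the side of het_1261. By the rule for naming them, the 6 largest among genes above the ceiling on both arrays were Hrnr (4.48), Fosl1 (3.85, from 198 and 2869), Zfp36 (3.77, from 1176 and 16087), Sprr1b (3.72), Taf15 (3.43, from 97.2 and 1061) and the chemokine Cxcl10 (3.34, from 468 and 4736). Those higher on het_1210 were smaller: Hddc3 (-2.46), Hyi (-2.26), Egfl8 (-2.00), Zfp719 (-2.00), Riox1 (-1.99) and Mrpl33 (-1.96, from 6947 and 1786). Where a second probe set existed it gave a smaller difference in the same direction: 3.45 for Fosl1, 1.23 for Taf15, -0.86 for Hddc3, -1.05 for Zfp719 and -0.67 for Mrpl33. The second probe sets of Hddc3 (64.6 and 35.1), Zfp719 (79.7 and 37.9) and Mrpl33 (50.9 and 31.6) were near background by their mean. For genes near background a 2-fold difference was common, as given above.

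A chosen set of immediate early and stress response genes was higher on het_1261. In a list of 33 such genes, drawn up after their values had been seen and so no independent evidence, 33 were above the ceiling on both arrays, all 33 were brighter on het_1261, and 27 were over 2-fold so, against 5.67% of genes above the ceiling on both arrays and 11.4% of all genes. The median difference was 1.93, and 1.98 under quantile scaling. The AP-1 subunits Fos at 7933 and 26128, Jun at 2454 and 13731 and Junb at 917 and 6217, the factor Atf3 at 2637 and 18933 and the phosphatase Dusp1 at 2122 and 14796 are examples. Levels on het_1210 were not near background: Egr1 read 7706, and Fos ranked 575 on that array. Egr3, at 1047 and 1089.8, Cxcl2, at 732 and 821, and Hspa1b, at 13976 and 17179, were close on the 2 arrays.

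**Figure D5:**
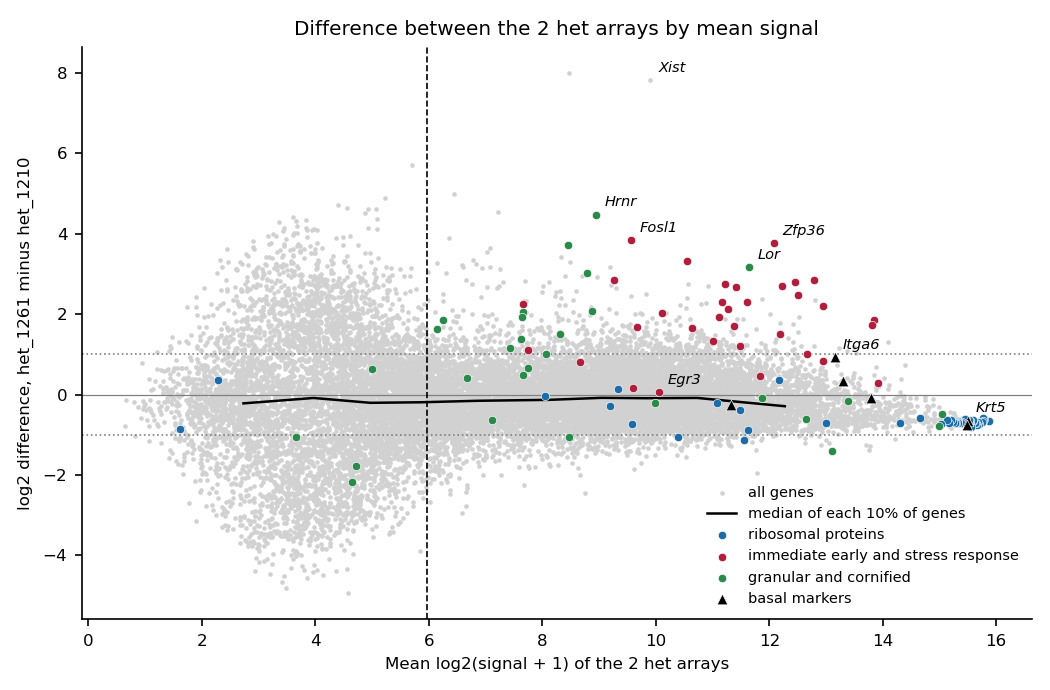
Difference between the het arrays (het_1261 minus het_1210, log2) against mean log2(signal + 1), 1 point a gene, with the median of each 10% of genes as a line, 2-fold limits dotted and the ceiling dashed. Immediate early and stress response genes, chosen after their values were seen, lie above 0, and granular and cornified genes spread upward. Ribosomal proteins cluster at -0.68, and the cloud widens below the ceiling.

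Signals of probe sets of the same gene spread widely. Among 9010 genes with several probe sets the median spread between a gene's brightest and dimmest probe set was 2.65 on the log2 scale, and the median size of the difference between the arrays was 0.49. For the 6802 of them above the ceiling on both arrays these were 3.25 and 0.43. The spread includes how well each probe set binds, so it is not the same measure as the difference between the arrays. For Krt14 one of 3 probe sets read 90.3 and 1243, higher on het_1261, while the bright ones read 59598 and 35520.1, and 55417 and 31252, higher on het_1210. A low rank therefore places a gene's brightest probe set and does not show that its transcript was scarce.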

How the data were processed

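RNA of sorted cells was amplified with a 3' IVT kit and hybridised to 1-colour expression arrays, per the labels' protocols. Values as deposited are MAS5 signals, an intensity on a linear scale, per the submitters' processing notes. On each array the mean after trimming 2% of probe sets at each end was 500.0, so the values were used with no further scaling. Scaling to a common mean leaves arrays with different ranges of signal, and MAS5 summaries vary strongly at low signal. A detection call was not used here. The background correction settings are not given in the sources used here.

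Of 45101 probe sets, 64 controls were left out, and 34945 carried 1 gene symbol in the platform annotation, 932 several and 9160 none. Symbols were updated through gene IDs for 34741 probe sets, with the RefSeq table of GRCm38.p6. Values were taken as log2(signal + 1), and the brightest probe set by mean stood for a gene, with no filter on low values. Other-organ and chemosensory genes (54 and 72) set the ceiling. Genes named are the 6 markers, the 25 brightest, the 3 brightest of each list, all of lists of up to 6, the 6 largest differences each way among genes above the ceiling on both arrays, and Srf; other genes named were chosen after their values were seen. The members and lists were chosen with earlier results of these data known. Those of ribosomal proteins and of all keratins were taken by gene symbol after the values here had been seen. With 2 arrays of 1 group there was no test, and the number of arrays limits the precision. Alternatives were another pseudocount, the median probe set, median centring, quantile scaling, other ceilings, a filter at a signal of 50 and leaving out an array. Promoters matched by symbol for 14452 of the 18193 genes. The scripts were tested on simulated data. Python 3.11.15, pandas 2.3.3, numpy 2.4.6, scipy 1.17.1 and matplotlib 3.10.9 were used.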

Additional observations from a re-analysis of the deposited data

How the results depend on the processing

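The counts of genes above the ceiling, near background and within 2-fold stayed within 1.5 times their values under every alternative run. Genes above the ceiling on both arrays numbered 9869 to 11419 with other ceilings, and 11515 and 11635 were above it with a single array left. Genes near background numbered 5608 to 7432 with other ceilings, and 6558 and 6678 with a single array left. Genes within 2-fold numbered 13096 with median centring, 13365 with the median probe set of a gene, 13423 with quantile scaling and 15531 with a pseudocount of 16. With only genes of a signal of at least 50 on both arrays they numbered 10391, since fewer genes were counted. Agreement has no value with 1 array.

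Ranks depended most on the probe set: of 109 abundant genes named by the rule, 92 stayed in the top 10% with the median probe set. Those that left it were Trp63, Rps4x, Tpt1, Plec, Itgav, Klf5, Sox4, Adam10, Jag1, Ptch1, Edaradd, Fdft1, Scd2, Txn1, Top2a, Erbb3 and Mrpl33. With quantile scaling all 109 stayed, on het_1261 alone 106 (Itgb4, Edaradd and Mrpl33 left) and on het_1210 alone 100 (Itgav, Gli2, Adam10, Jag1, Rela, Fdft1, Idi1, Cdkn1a and Zfp36 left). In alternatives chosen after seeing the data, median centring turned the median difference of G2 and M genes from 0.08 to -0.16 and that of hemidesmosome genes from 0.24 to -0.010; it lowers every difference by the same amount, so small medians change sign by its construction. No paired analysis was possible because no groups were compared and no result comes from a test. Signals below the ceiling of 61.3 give no order among genes.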

Other observations

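Several genes outside the lists ranked near the top, and they are named here after their values were seen. The stefin Stfa3, a cysteine protease inhibitor, read 56669.6 and 33603, rank 30, and the fatty acid binding protein Fabp5, made in keratinocytes, read 52719.5 and 35352, rank 31. Genes of the actin cytoskeleton lay close by: the actins Actg1 at 44873 and 32894 and Actb at 37974 and 25093, the thymosins Tmsb10 at 49689.8 and 30994 and Tmsb4x at 45860.0 and 33176, and cofilin (Cfl1) at 25454 and 20922. The membrane-binding pair Anxa2 and S100a10 read 41140.2 and 27332, and 34264 and 20804. Cd24a, a surface glycoprotein, read 24180.1 and 18526. Each of these was brighter on het_1210, as were all 100 of the brightest genes. The metallothionein Mt1, which binds metals, had the opposite order at 16646 and 27493, rank 118.

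Among genes above the ceiling on 1 array alone, the largest difference was that of Car3, a carbonic anhydrase of muscle and fat, at 21.0 and 5648. The hair keratin-associated gene Krtap13 read 6.12 and 375 and Arc, an activity-induced gene of neurons, read 14.3 and 489. Of the collagens outside the lists, Col5a2 at 2658 and 2989 and Col18a1 at 2960.3 and 2489 were abundant. Probe sets with no gene symbol included 2654 above the ceiling by their mean and 141 in the range of the abundant genes. Neither these nor the probe sets with several symbols were analysed here.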
